A study of Mus musculus with 18 samples.

Results

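The 38 genes described here are linked to protein folding and stress signalling in the endoplasmic reticulum (ER), the compartment where secreted and membrane proteins are folded. They were chosen by gene symbol, 38 of 38 symbols were found among 19518 genes measured, and 37 were among the 12031 genes with enough signal to be tested. By role they comprise 17 chaperones and folding enzymes (the cytosolic Dnajc12 among them) and 8 genes of ER-associated degradation. The others are 6 stress sensors and transcription factors, and 7 targets of the PERK-ATF4 arm. RNA was taken from frozen kidney of ICR mice, an outbred strain, at 10 weeks of age, and sequenced in 18 libraries, 3 in each of 6 groups. In the HFD+AOS-FMT group, the diet was combined with a transplant of faecal microbiota (FMT, in which gut microbes pass from a donor to a recipient), and the label of that transplant names AOS 10 mg/kg. In HFD+control-FMT, mice on the diet received an FMT labelled control. HFD+AOS joined the diet with AOS at 10 mg/kg, and the HFD (high fat diet) group had the diet alone. The AOS group received AOS at 10 mg/kg, and the control group is labelled control only. AOS is written as the labels give it. The sources used here name neither the donors of the transplants nor the composition of the diets. Whether the 3 libraries of a group are 3 animals is not stated in the labels. The p-values therefore reflect the spread among these libraries, which may be technical.

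When unfolded proteins build up in the ER, 3 membrane sensors respond. Ern1 (IRE1) splices the messenger RNA of Xbp1, Atf6 is cut to release a transcription factor, and Eif2ak3 (PERK) slows translation and raises the factor Atf4. Xbp1 and Atf6 are known to induce chaperones and degradation genes, and Atf4 induces genes of amino acid supply and the factor Ddit3 (CHOP). The kidney tubule makes and recycles large amounts of membrane transporters and receptors, and lasting ER stress is studied there as a part of tubule injury. The values here are 1 signal per gene, so the spliced and unspliced forms of Xbp1 were not separated, nor was the cleavage of Atf6 or any protein measured.

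Some libraries stand apart. Kap, an abundant protein of the proximal tubule, took 2.48% of the summed signal in control replicate 3, against 17.2% to 22.9% in the other 17 libraries. The 9 adrenal gland markers summed to 981 in that library, against at most 4.30 in any other. Germ cell transcripts of the testis were summed over 17 genes, with Smcp left out since it stood at 11.7 to 33.6 in every library. They summed to 34.9 to 53.0 in the 3 control libraries and in HFD replicates 1 and 2. The sum was at most 1.59 in the other 13 libraries, HFD replicate 3 among them (1.30). The 10 proximal tubule markers summed to 4614 in control replicate 3 and to between 5833 and 7174 in the other 17 libraries. Read numbers are not known and no counting error can be given, and 17.3% of all values in the table are listed at 0. In whole kidney, fewer cells of a type and less RNA per cell cannot be told apart.

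The abundant members were the lectin chaperone Calr (calreticulin), with a mean signal of 552 over the 18 libraries, P4hb (332) and Pdia3 (295), both of which form or exchange disulphide bonds, and the Hsp90 and Hsp70 chaperones of the ER, Hsp90b1 (229) and Hspa5 (218, BiP). The signal behaves as one scaled for gene length, so these levels may be compared between genes. Sensors lay far lower, with Eif2ak3 at 7.91, Atf6 at 7.02 and Ern1 at 2.64, while their downstream factors Atf4 and Xbp1 averaged 79.4 and 52.4. The lowest were Derl3 (1.27), a derlin known from secretory cells, Chac1 (0.892) and Trib3 (0.595), the last of which was too low to be tested. Members differed in how steady they were. Derl1, a channel component of degradation, had a coefficient of variation of 4.45% over the 18 libraries, P4hb 7.52%, Hspa5 17.6%, Ddit3 46.1% and Trib3 85.8%.

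**Figure D1:**
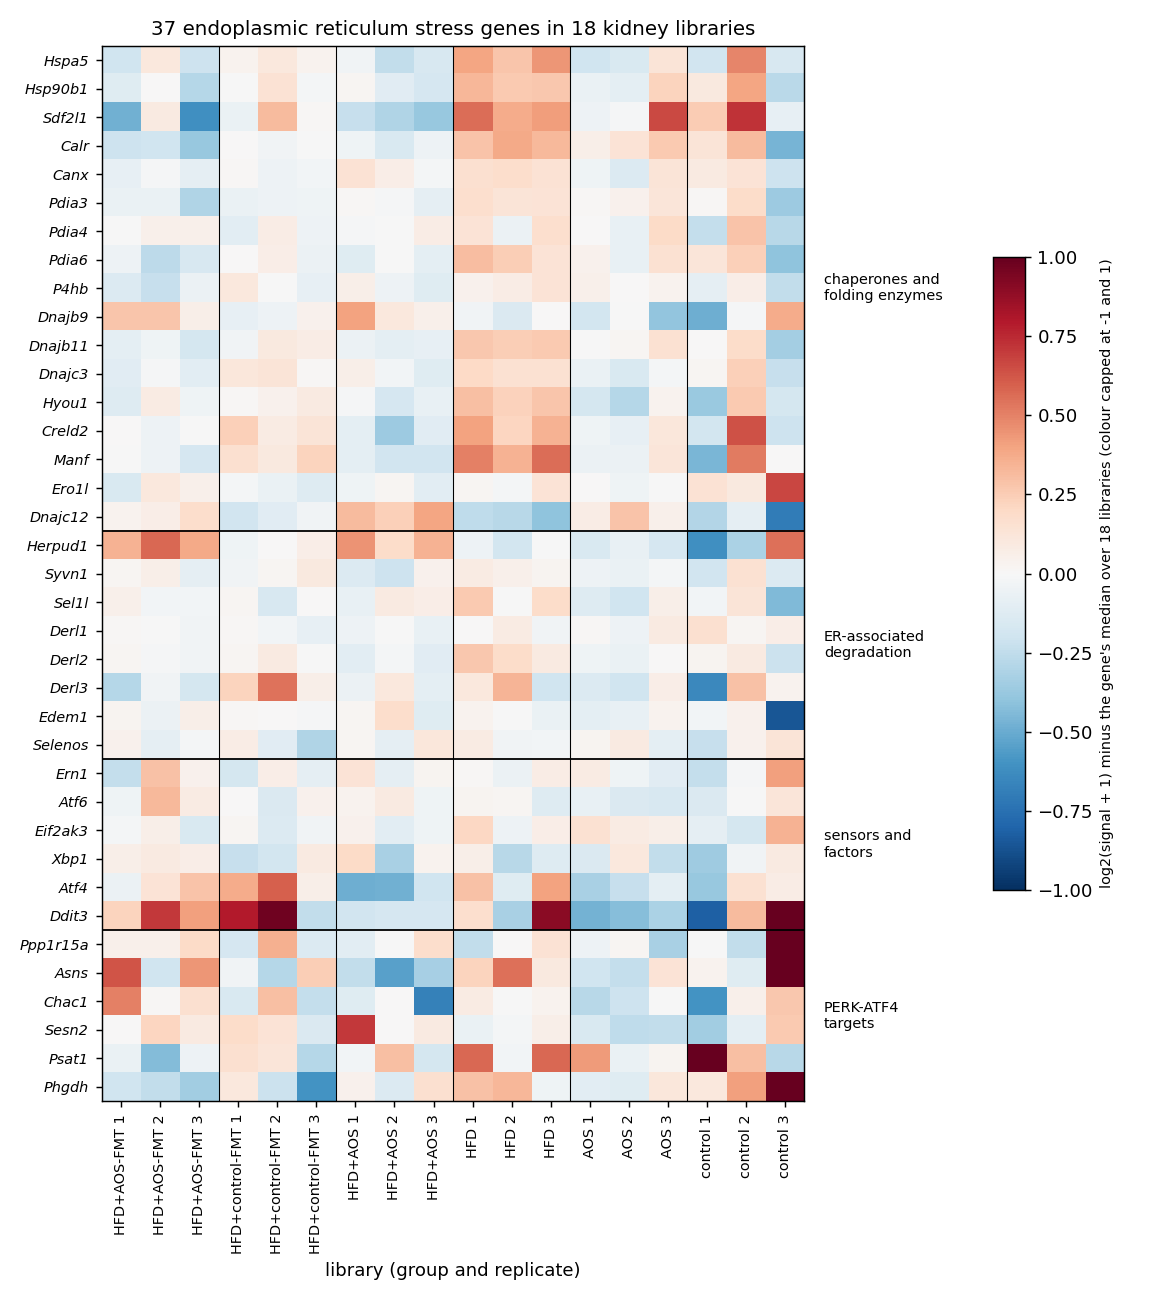
Each row is a member and each column a library, grouped by treatment. Colour gives log2(signal + 1) minus the gene's median over the 18 libraries, capped at -1 and 1, with red above and blue below the median. Most chaperone rows are red in the 3 HFD libraries, and Dnajc12 and Herpud1 run the other way.

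Chaperone genes share a promoter element, the ER stress element (ERSE), which joins a CCAAT box for NF-Y to a site bound by Atf6 across 9 free bases. The promoters of 33 members were matched in RefSeq (build GRCm38.p6, 250 bases before and 50 after the start of transcription) and searched on both strands. The motifs searched are known from textbooks and were in no file used here, so they are given by name, and capitals mark the fixed letters of the ERSE and ERSE-II. The ERSE was found in 9 of 33 members (Hspa5, Hsp90b1, Calr, Canx, Pdia6, Dnajc3, Creld2, Syvn1 and Derl3), against 0.137% of all 27025 genes with a promoter. The element is known from chaperone genes, so its share among these members is no independent result. The promoter of Hspa5, the sensor-binding chaperone that serves as the standard readout of ER stress, is shown from chr2:34771840-34772089 on the plus strand, with the fixed letters of the match in capitals.
Hspa5 promoter: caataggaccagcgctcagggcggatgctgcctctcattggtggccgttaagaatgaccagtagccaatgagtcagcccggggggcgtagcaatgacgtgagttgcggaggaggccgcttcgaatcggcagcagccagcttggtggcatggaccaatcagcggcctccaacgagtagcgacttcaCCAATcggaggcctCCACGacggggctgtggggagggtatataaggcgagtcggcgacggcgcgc
The match ends 46 bases before the start of transcription. Only Hspa5 met the rule for printing a promoter, and the windows of the other members were picked with their values known, to show how the 9 bases between the capitals differ while the ends are shared. Each is read 5′ to 3′ on the strand that carries CCAAT first.
Hspa5: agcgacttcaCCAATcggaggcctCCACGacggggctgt
Hsp90b1, first match: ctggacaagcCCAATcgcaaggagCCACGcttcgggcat
Hsp90b1, second match: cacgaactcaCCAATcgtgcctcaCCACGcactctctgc
Calr: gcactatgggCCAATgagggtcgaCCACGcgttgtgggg
Canx: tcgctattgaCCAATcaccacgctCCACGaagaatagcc
Pdia6: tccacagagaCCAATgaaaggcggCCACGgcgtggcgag
Dnajc3: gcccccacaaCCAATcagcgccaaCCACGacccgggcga
Creld2: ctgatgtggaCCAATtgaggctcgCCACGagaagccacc
Syvn1: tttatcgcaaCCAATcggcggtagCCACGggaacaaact
Derl3: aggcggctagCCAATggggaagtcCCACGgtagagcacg
Another form, ERSE-II, was found in Herpud1 and Dnajb11, against 0.0444% of all genes with a promoter. It is shown for Herpud1, with the motif's fixed letters in capitals, from chr8:94386367-94386397 on the plus strand.
Herpud1: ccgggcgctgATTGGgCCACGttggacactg
The response element of Atf4 with C/EBP partners (CARE) was found in 4 of 33 members (Herpud1, Trib3, Asns and Chac1), against 4.5% of all genes with a promoter. The core of the element for spliced Xbp1 (UPRE) was found in 0 of 33, against 0.714%. Matches of different motifs did not overlap in any member. A match describes the sequence and does not show binding.

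HFD+AOS against HFD addresses whether AOS altered the kidney of mice on the diet. Dnajc12, a cytosolic cochaperone of the aromatic amino acid hydroxylases, rose, and it was the only member that passed. It stood at 185, 174 and 195 in the 3 HFD+AOS libraries, against 124, 122 and 112 in the 3 HFD libraries. The groups did not overlap, with means of 185 ± 10.4 in HFD+AOS and 119 ± 6.27 in HFD (SD, n = 3 in each group). The log2 difference was 0.63 ± 0.12 (SE, limma adjusted p = 0.0256). Thus 1 of 37 members passed, against 0.823% of all 12031 genes. At an unadjusted p under 0.05 in limma 13 members were lower and 1 higher, against 6.86% and 8.2% of all genes. That call was lost when any HFD or HFD+AOS library was left out, and with HFD replicate 3 as the only HFD library the log2 difference was 0.72 (limma adjusted p = 0.216).

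Most chaperones lay lower with AOS on the diet, though none of them passed. Hspa5 stood at 207, 178 and 189 in HFD+AOS, against 279, 257 and 287 in HFD, with a log2 difference of -0.52 ± 0.15 (SE, limma adjusted p = 0.111). Every HFD+AOS library was below every HFD library. Manf, a secreted ER protein that protects cells under stress, stood at 26.6, 24.9 and 24.9 in HFD+AOS, against 41.0, 36.7 and 42.5 in HFD. Here too the groups were apart, and the log2 difference was -0.63 ± 0.16 (SE, limma adjusted p = 0.0831). Derl2, a derlin that passes misfolded proteins to the cytosol for degradation, averaged 13.9 ± 0.529 in HFD+AOS and 16.9 ± 1.11 in HFD (SD, n = 3 each, log2 difference -0.26, limma adjusted p = 0.109).

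In 12 of the 17 chaperones and folding enzymes, all 3 HFD+AOS libraries were below all 3 HFD libraries, and in 2 (Dnajc12 and Dnajb9) all 3 were above. Over the 37 members the counts were 15 below and 3 above, against 12% of all genes below (1444 of 12031) and 16.2% above. The median log2 difference was -0.31 over the chaperones, -0.15 over the 37 members and 0.01 over all genes. Set against HFD replicate 3 alone, which lacks the testis transcripts, all 3 HFD+AOS libraries were below it in 15 of 17 chaperones, with 27.9% of all genes below. Hspa5 stood at 287 in that library and at 279 and 257 in HFD replicates 1 and 2. With 1 such library the part of the testis transcripts cannot be told.

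The stress factors did not move as a block. Atf4 stood at 55.0, 55.3 and 67.6 in HFD+AOS, against 95.4, 71.1 and 103 in HFD, so that the groups did not overlap (log2 difference -0.58 ± 0.17 SE, limma adjusted p = 0.117). Asns, the asparagine synthetase that Atf4 induces, averaged 1.98 ± 0.312 in HFD+AOS and 3.76 ± 0.797 in HFD (SD, n = 3 each), and those libraries were also apart. Ddit3 was 11.6 to 11.8 in HFD+AOS, inside the HFD range of 10.5 to 26.0. Xbp1, Atf6, Ern1 and Eif2ak3 overlapped between the groups, with log2 differences between -0.11 and 0.08. Herpud1, which recruits the degradation machinery at the ER membrane, stood at 172, 143 and 160 in HFD+AOS, all above 121, 110 and 125 in HFD (log2 difference 0.41).

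**Figure D2:**
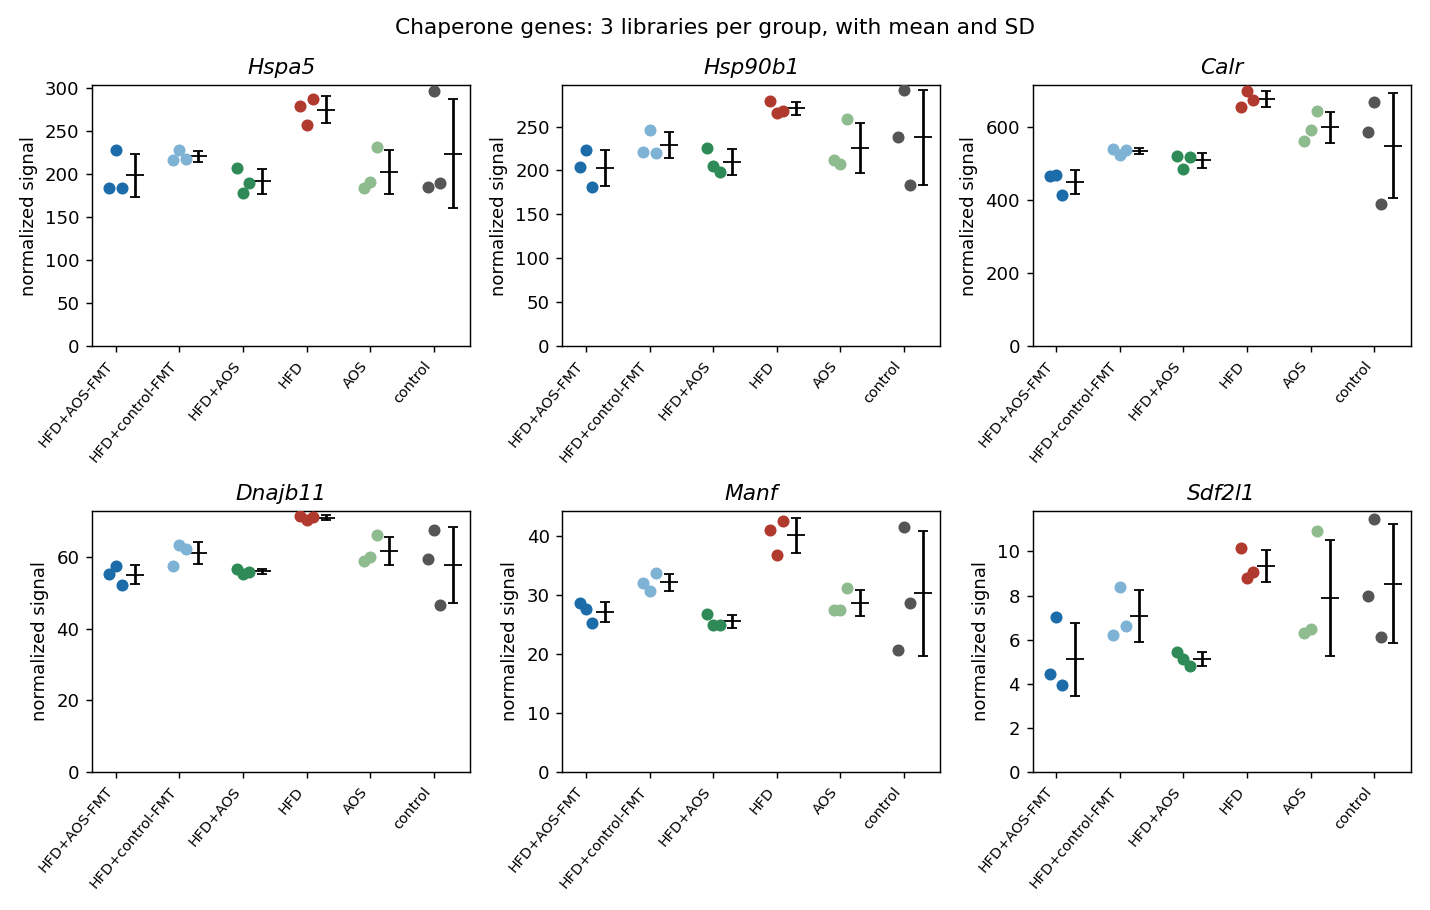
Normalized signal of 6 chaperone genes in each library (points, 3 per group), with the group mean and SD as a bar beside them. In all 6 panels the HFD+AOS-FMT, HFD+control-FMT and HFD+AOS points lie below the HFD points, while the control points spread widely, for Hspa5 between 185 and 296.

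HFD+AOS-FMT against HFD asks whether the transplant labelled AOS altered the kidney on the diet. No member passed (0 of 37, against 0.175% of all genes), while 13 members were lower and 2 higher at an unadjusted p under 0.05 in limma, against 4.63% and 8.63% of all genes. Calr, which holds newly made glycoproteins until they fold, stood at 467, 468 and 413 in HFD+AOS-FMT, against 655, 699 and 672 in HFD. The groups were far apart relative to their spread, and the log2 difference was -0.59 ± 0.14 (SE, limma adjusted p = 0.0910). Dnajb11, the J-domain partner of Hspa5, stood at 55.4, 57.5 and 52.2 in HFD+AOS-FMT, against 71.5, 70.3 and 71.2 in HFD (log2 difference -0.36 ± 0.10 SE, limma adjusted p = 0.126). The SD of the HFD libraries was 0.649.

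Sdf2l1, a companion of Hspa5 and Dnajb11, had low signals of 4.42, 7.01 and 3.93 in HFD+AOS-FMT, against 10.1, 8.78 and 9.07 in HFD. The log2 difference was -0.79 ± 0.22 (SE, limma adjusted p = 0.140), and on this scale low signals understate the change. Dnajc12 was again on the other side, at 152, 155 and 167 in HFD+AOS-FMT, against 124, 122 and 112 in HFD (log2 difference 0.40 ± 0.12 SE, limma adjusted p = 0.157). In 13 of 17 chaperones all HFD+AOS-FMT libraries were below all HFD libraries, and Dnajc12 and Dnajb9 were above. Over the members, 16 were below and 4 above, against 7.86% of all genes below and 17.3% above, and the chaperones had a median log2 difference of -0.30, against 0.05 for all genes. Against HFD replicate 3 alone, 15 of 17 chaperones were below, with 18.7% of all genes.

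Herpud1 averaged 171 ± 15.0 in HFD+AOS-FMT and 119 ± 7.63 in HFD (SD, n = 3 each, log2 difference 0.52). Xbp1 was 56.8 to 58.1 in HFD+AOS-FMT and 44.8 to 56.7 in HFD, so the groups were apart by a small margin. Atf4 overlapped, at 74.5 to 94.6 in HFD+AOS-FMT and 71.1 to 103 in HFD. Psat1 and Phgdh, enzymes of serine synthesis on the Atf4 list, had all HFD+AOS-FMT libraries below all HFD libraries. Phgdh stood at 6.78, 6.52 and 6.01 in HFD+AOS-FMT, against 9.96, 10.3 and 7.67 in HFD.

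Markers of other cell types are given here for the same comparisons, counted as above or below where the libraries of the groups did not overlap. Of 6 podocyte markers, 3 were above and 0 below in HFD+AOS-FMT against HFD, and 4 above and 0 below in HFD+AOS against HFD. Their sum was 39.8 to 70.1 in HFD+AOS-FMT, 44.6 to 54.5 in HFD+AOS and 29.2 to 41.0 in HFD. Of the 10 proximal tubule markers, 2 were above and 2 below in HFD+AOS-FMT against HFD, and 5 above and 1 below in HFD+AOS against HFD. Their sum was 6429 to 6938 in HFD+AOS-FMT, 6689 to 7174 in HFD+AOS and 6200.3 to 6368 in HFD. Of 7 macrophage markers, 1 was above and 3 below in HFD+AOS-FMT against HFD, and 0 above or below in HFD+AOS against HFD. Their sum was 73.4 to 94.4 in HFD+AOS-FMT, 70.4 to 102 in HFD+AOS and 87.4 to 111 in HFD. The part of these cell types in the chaperone values was not tested.

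The spread that limma assigns to each gene is shared by all 6 groups, and control replicate 3 widens it. Without that library, which is in neither group compared, the log2 differences keep their values and 10 members passed in HFD+AOS-FMT against HFD, against 4.86% of all genes. Of these, 8 were lower (Calr, Dnajb11, Pdia6, Pdia3, Hsp90b1, Sdf2l1, Dnajc3 and Canx), against 1.47% of all genes, and 2 higher (Herpud1 and Dnajc12), against 3.39%. Calr then had a limma adjusted p of 0.000746. In HFD+AOS against HFD, 10 members passed as well, against 6.72% of all genes. Lower were 8 (Calr, Dnajb11, Derl2, Pdia6, Hsp90b1, Manf, Sdf2l1 and Hspa5), against 2.48% of all genes, and higher were 2 (Dnajc12 and Herpud1), against 4.24%.

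HFD+control-FMT against HFD gives the effect of a transplant labelled control. None of 37 members passed, against 0% of all genes, and 3 were lower at an unadjusted p under 0.05 in limma (Calr, Dnajb11 and Canx) and 0 higher, against 1.68% and 2.82% of all genes. Calr stood at 540, 524 and 536 in HFD+control-FMT, against 655, 699 and 672 in HFD (log2 difference -0.34 ± 0.14 SE, limma adjusted p = 0.9996). Hspa5 stood at 216, 227 and 217 in HFD+control-FMT, against 279, 257 and 287 in HFD (log2 difference -0.31 ± 0.15 SE, limma adjusted p = 0.9996). Dnajb11 and Canx, the membrane-bound relative of Calr, had log2 differences of -0.22 and -0.18 with the same adjusted p. In 11 of 17 chaperones the transplant libraries were all below the HFD libraries and in 1 (Dnajc12) all above. The same 11 and 1 are the counts over all 37 members, against 6.38% and 9.07% of all genes. The median log2 difference of the chaperones was -0.20. All 3 comparisons use the same HFD libraries, so they are not independent of each other.

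**Figure D3:**
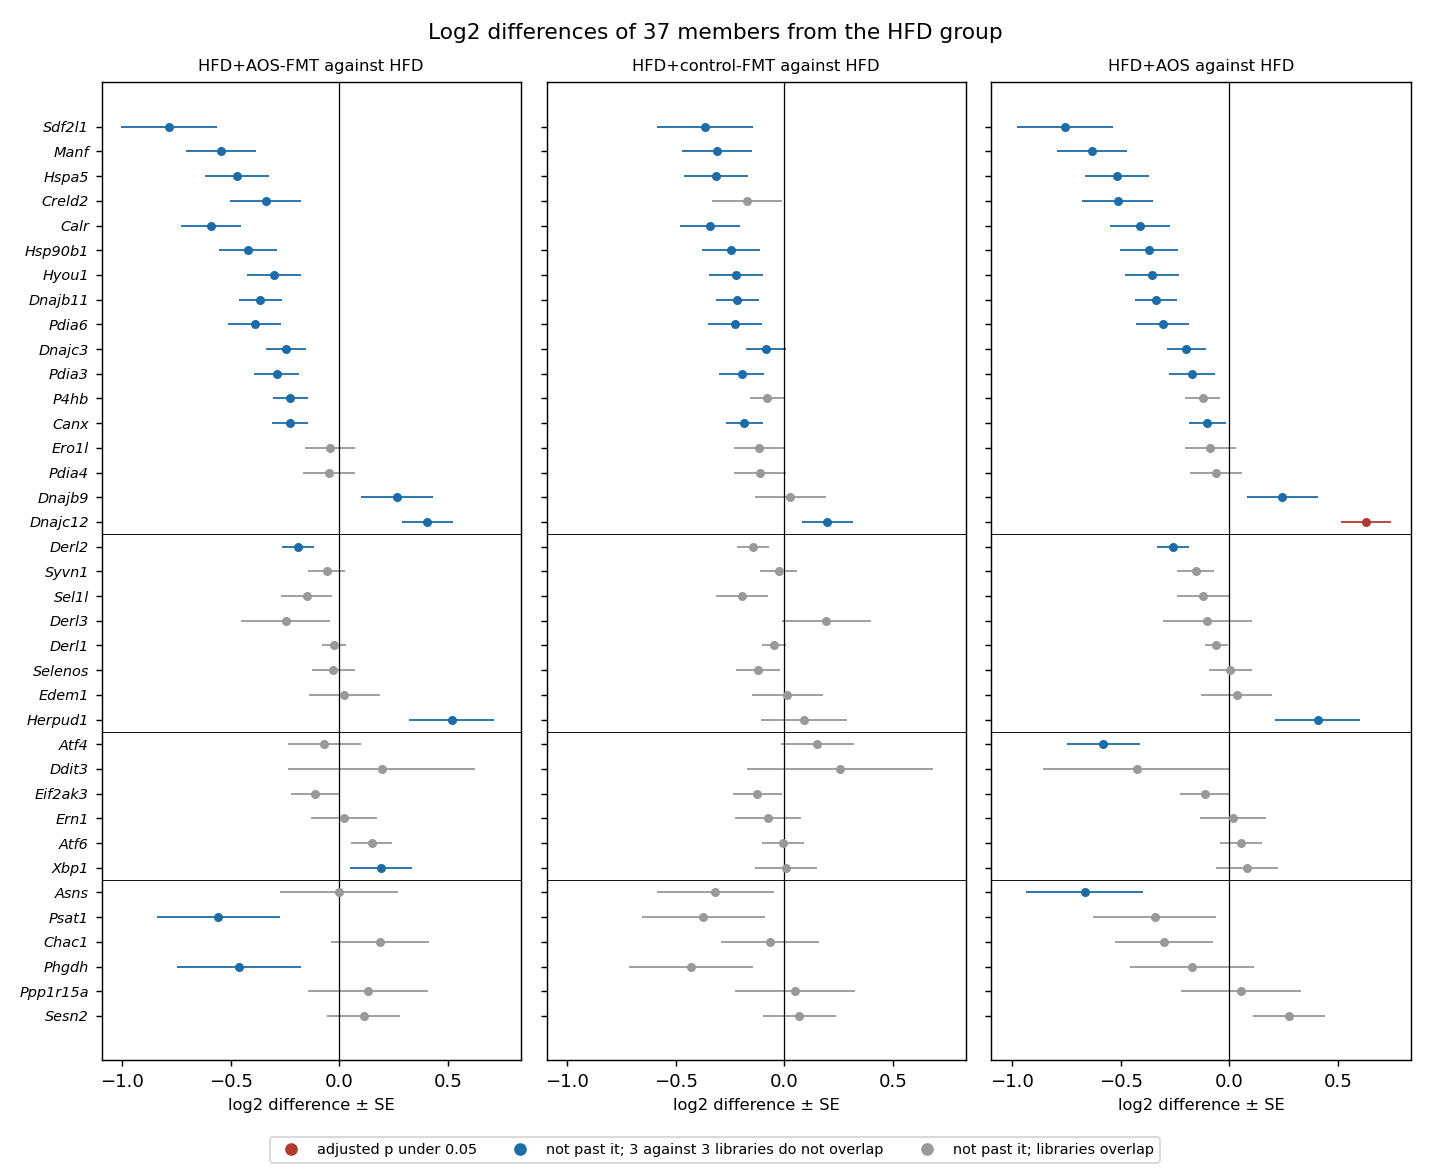
Log2 difference (x axis, with SE) of each of 37 members (rows, by role) in the comparisons of HFD+AOS-FMT, HFD+control-FMT and HFD+AOS with HFD. Red marks Dnajc12, the member with an adjusted p under 0.05, blue marks members whose libraries do not overlap, and most chaperones lie left of 0 in each panel.

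The direct comparison of the transplants is HFD+AOS-FMT against HFD+control-FMT. No member passed (0 of 37, against 0% of all genes), and 1 was lower and 1 higher at an unadjusted p under 0.05 in limma, against 2.76% and 4.26% of all genes. Without control replicate 3 again 0 members passed, with 0.0416% of all genes lower and 0.0748% higher (0.116% in all). Herpud1 stood at 160, 188 and 164 in HFD+AOS-FMT, against 122, 126 and 132 in HFD+control-FMT, with no overlap (log2 difference 0.42 ± 0.20 SE, limma adjusted p = 0.708). Derl3 averaged 1.00 ± 0.176 in HFD+AOS-FMT and 1.74 ± 0.481 in HFD+control-FMT (SD, n = 3 each, log2 difference -0.44, limma adjusted p = 0.709). Sdf2l1 and P4hb overlapped between the groups, with log2 differences of -0.42 and -0.15 (limma adjusted p = 0.733 and 0.739), and without HFD+AOS-FMT replicate 2 that of Sdf2l1 was -0.63. In 7 of 37 members all HFD+AOS-FMT libraries were below, against 5.67% of all genes, and in 3 all were above (Herpud1, Dnajc12 and Dnajb9), against 12.4%.

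HFD against control addresses the diet itself. No member passed (0 of 37, against 0% of all genes), and 8 were higher and 1 lower at an unadjusted p under 0.05 in limma, against 2.93% and 14.5% of all genes. The control libraries disagreed: Hspa5 stood at 279, 257 and 287 in HFD, against 185, 296 and 189 in controls, so that control replicate 2 was above every HFD library. Manf showed the same split, with 41.0, 36.7 and 42.5 in HFD, against 20.6, 41.4 and 28.6 in controls (log2 difference 0.45 ± 0.16 SE, limma adjusted p = 0.237). Dnajb11 was clear of all controls, at 71.5, 70.3 and 71.2 in HFD, against 59.3, 67.5 and 46.5 (log2 difference 0.31 ± 0.10 SE, limma adjusted p = 0.234). Hyou1, a large Hsp70-type chaperone, averaged 28.6 ± 0.766 in HFD and 22.4 ± 5.48 in controls, and Derl2 16.9 ± 1.11 in HFD and 14.5 ± 1.69 in controls (SD, n = 3 each). Neither was clear of the controls, and both had a limma adjusted p of 0.235. Without control replicate 3 the log2 differences of Dnajb11 and Derl2 were 0.16 and 0.12. Without control replicate 1 those of Manf and Hyou1 were 0.21 and 0.23, and without control replicate 2 that of Manf was 0.70.

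All HFD libraries were above all controls in 2 members (Dnajb11 and Canx), against 3.03% of all genes, and below them in 0, against 12.6%. The median log2 difference was 0.20 over the chaperones, 0.15 over the members and -0.10 over all genes, and after quantile normalization 0.24, 0.21 and 0.01. These medians were 0.06, 0.10 and -0.02 without control replicate 3, and without control replicate 2 they were 0.36, 0.22 and -0.14. Without control replicate 3 the HFD libraries were above both remaining controls in 6 members (Canx, Dnajb11, Herpud1, Eif2ak3, Asns and Sesn2), against 7.96% of all genes. Without control replicate 2, 5 members passed as higher in HFD (Hspa5, Dnajb11, Hyou1, Creld2 and Manf), against 0.308% of all genes. That fit keeps control replicate 3, which stands apart, and with replicate 3 left out instead 0 members passed.

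AOS against control gives AOS without the diet. No member passed (0 of 37, against 0.0332% of all genes), and 1 was higher and 2 lower at an unadjusted p under 0.05 in limma, against 2.56% and 10.1% of all genes. Dnajc12 stood at 155, 180 and 154 in AOS, against 121, 139 and 90.8 in controls, and the groups did not overlap (log2 difference 0.50 ± 0.12 SE, limma adjusted p = 0.240). Without control replicate 2 it passed (limma adjusted p = 0.0446, against 0.0332% of all genes higher), and without control replicate 3 the log2 difference was 0.33 (limma adjusted p = 0.251). Ero1l, the oxidase that recharges disulphide isomerases, stood at 11.6, 11.2 and 11.5 in AOS, against 12.8, 12.4 and 18.9 in controls (log2 difference -0.32, limma adjusted p = 0.358, and -0.14 without control replicate 3). Phgdh and Ppp1r15a, the phosphatase subunit that restores translation, averaged 7.73 ± 0.813 and 5.29 ± 0.760 in AOS and 15.5 ± 10.1 and 8.49 ± 5.65 in controls (SD, n = 3 each). Both means in controls rest on replicate 3, and without it the log2 differences were -0.29 for Phgdh and 0.0092 for Ppp1r15a. Ero1l was 1 of 37 members below all controls, against 10.1% of all genes, and Dnajc12 1 of 37 above, against 3.07%. The median log2 difference of the members was -0.04, against -0.09 for all genes. It was 0.04 after quantile normalization (0.01 for all genes), 0.05 without control replicate 2 (-0.12) and -0.05 without control replicate 3 (-0.01). Over the 17 chaperones the median was -0.02, and in the same 3 settings 0.04, 0.18 and -0.09.

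Whether AOS differed in effect between the diets was tested as HFD+AOS minus HFD, less AOS minus control. The testis transcripts were high in all controls and in HFD replicates 1 and 2. In the AOS and HFD+AOS libraries they summed to at most 1.59, so AOS and this split cannot be fully told apart. No member passed (0 of 37, against 0% of all genes), and 4 were negative at an unadjusted p under 0.05 in limma, against 2.96% of all genes, with 0 positive, against 9.43%. These were Dnajb11 (-0.44 ± 0.14 SE, limma adjusted p = 0.362), Calr (-0.57 ± 0.20), Manf (-0.61 ± 0.23) and Derl2 (-0.25 ± 0.10), the last 3 with limma adjusted p between 0.368 and 0.391. They were -0.30 for Dnajb11, -0.34 for Calr and -0.16 for Derl2 without control replicate 3, and without control replicate 1 Manf was -0.37. For Dnajc12 both effects point up, at 0.63 on the diet and 0.50 off it.

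HFD+AOS-FMT against control sets the transplant group beside the group labelled control. No member passed (0 of 37, against 2.32% of all genes), and 2 were higher and 3 lower at an unadjusted p under 0.05 in limma, against 6.41% and 12.6% of all genes. Dnajc12 stood at 152, 155 and 167 in HFD+AOS-FMT, against 121, 139 and 90.8 in controls, clear of all controls (log2 difference 0.45 ± 0.12 SE, limma adjusted p = 0.0560). Without control replicate 3 the log2 difference was 0.28 (limma adjusted p = 0.0727), and without control replicate 2 it was 0.59 and passed (limma adjusted p = 0.00982). Phgdh averaged 6.44 ± 0.392 in HFD+AOS-FMT and 15.5 ± 10.1 in controls (SD, n = 3 each, log2 difference -0.99, limma adjusted p = 0.0830), and without control replicate 3 the log2 difference was -0.52. Sdf2l1 and Herpud1 overlapped with the controls, with log2 differences of -0.63 and 0.56 (limma adjusted p = 0.137 and 0.138). That of Sdf2l1 was -0.42 without control replicate 2, and that of Herpud1 was 0.32 without control replicate 1 and 0.90 without control replicate 3. Dnajc12 was the 1 member above all controls, against 5.84% of all genes, and 2 were below, against 10.1%. Both counts include control replicate 3, which can only widen the range of the controls. The median log2 difference of the chaperones was -0.09, against -0.06 for all genes. It was -0.20 without control replicate 3 (0.02 for all genes) and 0.03 without control replicate 2 (-0.09). Without control replicate 3, Calr and Pdia6 passed as lower and Herpud1 as higher (3 of 37, against 4.35% of all genes).

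**Figure D4:**
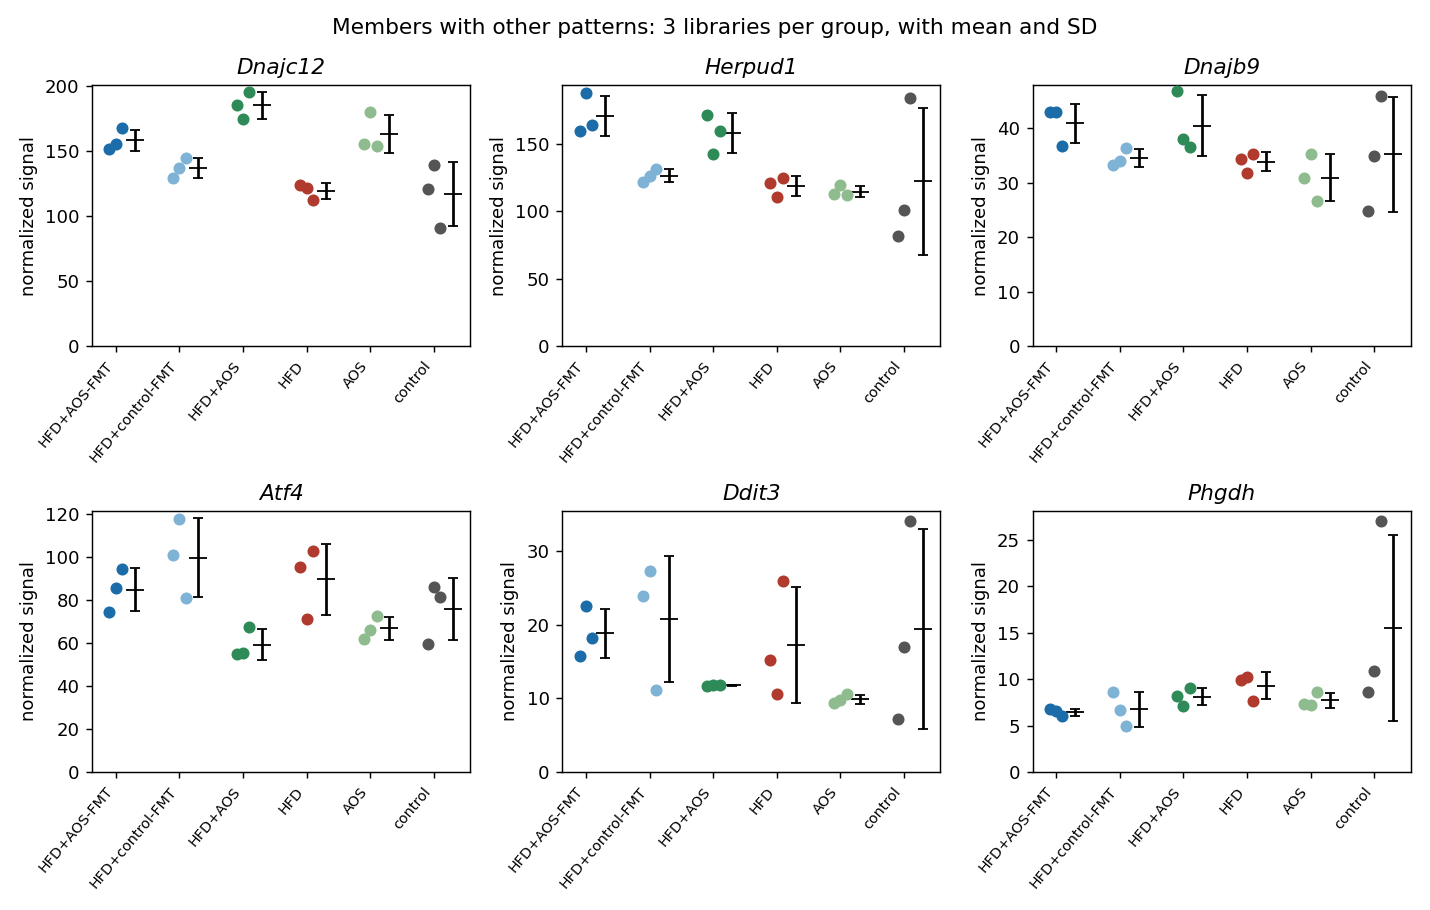
Normalized signal of 6 members with patterns unlike the chaperones in each library (points, 3 per group), with the group mean and SD as a bar beside them. Dnajc12 is above HFD in HFD+AOS-FMT, HFD+control-FMT and HFD+AOS, and control replicate 3 holds the top value of Ddit3 (34.0) and Phgdh (27.1).

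Of the 7 PERK-ATF4 targets, 4 had their top value in control replicate 3, and Psat1, Sesn2 and Chac1 had it in other libraries. Control replicate 3 held the top value of the factor Ddit3 (34.0) and of the targets Ppp1r15a (15.0, at most 7.69 elsewhere), Asns (6.90, at most 4.96 elsewhere), Phgdh (27.1, at most 10.9 elsewhere) and Trib3, a pseudokinase induced by Ddit3 and Atf4 (2.51, at most 0.84 elsewhere). The same library held the lowest value of Calr (389), Pdia6 (75.2), Dnajb11 (46.5) and Edem1 (10.9), a lectin that sends glycoproteins to degradation. The adrenal markers and the 8 injury genes (sum of 2986, against at most 777 in any other library) were highest there too, and their part in these values was not tested.

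Members with an ERSE were set beside those whose promoter had none. Hyou1, Manf, Dnajc12, Derl1 and Atf6 had no matched promoter and are in neither set. In HFD+AOS-FMT against HFD all 9 had a negative log2 difference (median -0.34), against 14 of 23 tested members without an ERSE (median -0.04). Some of the 23 hold an ERSE-II or a CARE. In HFD+AOS against HFD it was 9 of 9 (median -0.31), against 15 of 23 (median -0.12), and in HFD+control-FMT against HFD 8 of 9, against 15 of 23. In HFD against control 0 of 9 were negative (median 0.21), against 9 of 23 (median 0.05). With control replicate 3 left out it was 0 of 9 (median 0.07), against 5 of 23 (median 0.10), and with control replicate 2 left out the medians were 0.37 and 0.03. Between the transplants 9 of 9 were negative, against 9 of 23, and in AOS against control 5 of 9, against 14 of 23. The 2 members with ERSE-II went separate ways, Dnajb11 with the chaperones and Herpud1 against them. These counts are descriptions, since the ERSE members are mostly chaperones.

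Other genes of the same pathways numbered 117, of which 110 were tested. In HFD+AOS against HFD, 1 of 110 rose and 0 fell, against 56 and 43 of all 12031 genes. It was Vldlr, a lipoprotein receptor on the Atf4 list, at 15.2 ± 0.770 in HFD+AOS and 12.2 ± 0.557 in HFD (SD, n = 3 each, limma adjusted p = 0.0348). In HFD+AOS-FMT against control 1 of 110 rose and 2 fell, against 119 and 160 of all 12031 genes. In both comparisons the share that passed was close to that of all genes. The controls named next include replicate 3. Ppp1r15b, the constitutive partner of the eIF2α phosphatase, averaged 20.9 ± 0.667 in HFD+AOS-FMT and 15.8 ± 1.16 in controls (SD, n = 3 each, limma adjusted p = 0.00803). Aars, the alanyl-tRNA synthetase, averaged 32.2 ± 0.462 in HFD+AOS-FMT and 40.6 ± 3.85 in controls (SD, n = 3 each, limma adjusted p = 0.0154). Eif2s1, which encodes eIF2α itself, averaged 15.8 ± 0.436 in HFD+AOS-FMT and 18.7 ± 0.539 in controls (SD, n = 3 each, limma adjusted p = 0.0429).

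None of the 110 passed in the other 6 comparisons. The gene with the smallest p was Ppp1r15b in HFD+AOS-FMT against HFD (limma adjusted p = 0.0939) and in HFD+control-FMT against HFD (0.9996). It was Erp29, an ER secretion factor, between the transplants (limma adjusted p = 0.535), and Vldlr in the test of the AOS effect by diet (0.286). Fkbp7, a prolyl isomerase of the ER, had it in HFD against control (limma adjusted p = 0.234) and in AOS against control (0.343). The 110 genes had a median log2 difference of -0.03 in HFD+AOS-FMT against HFD and -0.04 in HFD+AOS against HFD, where the 17 chaperones had -0.30 and -0.31.

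Clock genes differed between the same groups. Dbp, an output factor of the circadian clock, stood at 97.8, 68.4 and 63.8 in HFD+AOS-FMT, at 10.4, 13.1 and 43.7 in HFD+control-FMT, at 69.7, 72.3 and 92.9 in HFD+AOS and at 3.26, 10.2 and 3.36 in HFD. The sum of 15 clock genes was 288 to 340 in HFD+AOS-FMT, 169 to 243 in HFD+control-FMT, 301 to 337 in HFD+AOS and 130 to 161 in HFD. It was 156 to 221 in AOS and 121 to 359 in controls, with the top value in replicate 3. Of the 15, 10 were above and 3 below in HFD+AOS-FMT against HFD, against 17.3% and 7.86% of all genes. In HFD+AOS against HFD 10 were above and 4 below, against 16.2% and 12%.

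Among the controls, replicate 1 had a low Dbp (2.76) with a low Hspa5 (185), replicate 2 a low Dbp (6.90) with a high Hspa5 (296), and replicate 3 a high Dbp (90.6) with a low Hspa5 (189). Herpud1 was at 110 to 125 in the HFD libraries and 81.7 and 101 in control replicates 1 and 2, where Dbp was low. In control replicate 3, where Dbp was 90.6, it was at 184. In HFD+control-FMT replicate 3 and AOS replicate 2, with Dbp at 43.7 and 36.5, Herpud1 was 132 and 119. In the HFD+AOS and HFD+AOS-FMT libraries, with Dbp at 63.8 to 97.8, it was 143 to 188. The hour of sampling is not given in the sources used here, and the part of the clock in these values was not tested. Of 12 cytosolic heat shock genes, 3 were below and 0 above in HFD+AOS-FMT against HFD, against 7.86% and 17.3% of all genes. In HFD+AOS against HFD 6 were below and 0 above, against 12% and 16.2%. The part of the heat shock genes was not tested either. Adipose markers summed to 147 to 439 in HFD+AOS-FMT, 99 to 395 in HFD+AOS and 224 to 633 in HFD, so that those groups overlapped.

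**Figure D5:**
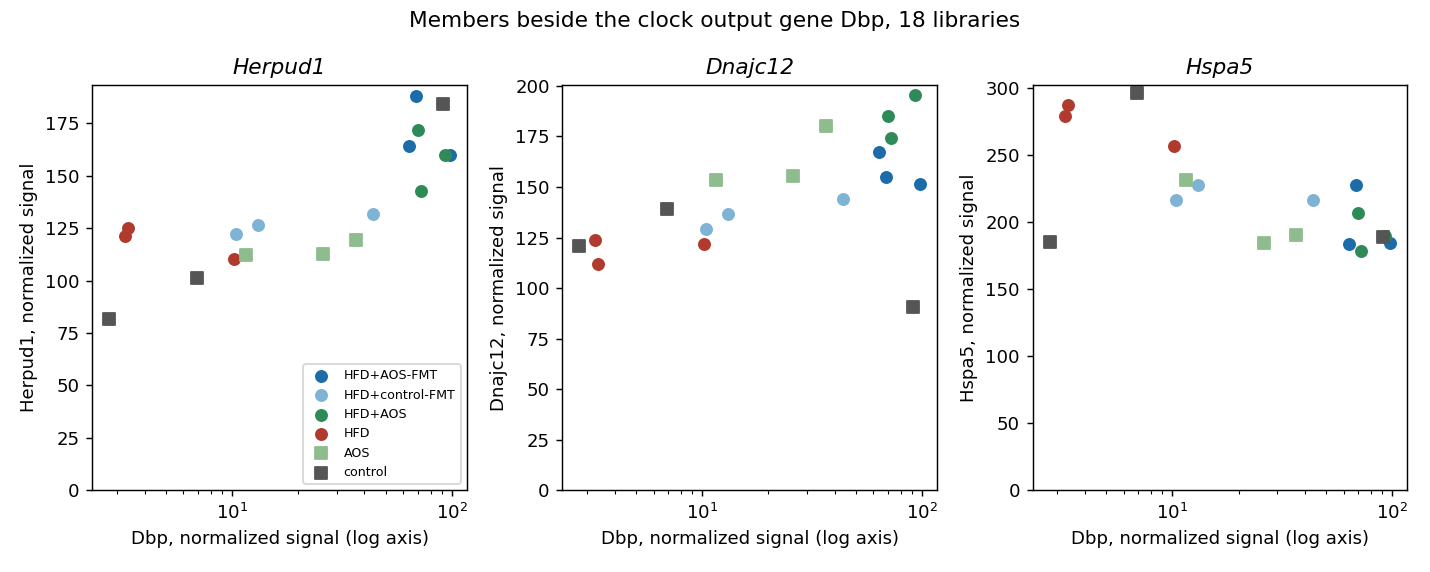
Herpud1, Dnajc12 and Hspa5 (y axes, normalized signal) beside the clock output gene Dbp (x axis, log scale) in the 18 libraries, coloured by group. HFD libraries sit at low Dbp (3.26 to 10.2) with Herpud1 between 110 and 125, control replicate 1 pairs a low Dbp (2.76) with an Hspa5 of 185, and control replicate 3 a high Dbp (90.6) with an Hspa5 of 189.

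Some members share sequence with other genes, which limits how reads can be assigned. In GENCODE M21, 11 members have an exon that overlaps an exon of another gene, and in 7 of these the other gene is protein coding (Pdia3, Pdia6, Manf, Syvn1, Derl2, Ddit3 and Ppp1r15a). Calr and Phgdh have named pseudogenes. Whether reads were counted by strand is not given in the sources used here, so overlapping reads of these members cannot be told apart.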

How the data were processed

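Kidney RNA of 18 libraries was sequenced. Bowtie 0.12.2 was the aligner and mm10 the genome build, per the submitters' processing notes. The authors deposited 1 table of normalized signal per gene symbol and library, without a stated unit, and how they counted and normalized is not given in the sources used here. Column sums varied by 3.46% (coefficient of variation) and by 1.15% after multiplying by transcript length (97.3% of genes), so the signal was treated as scaled for length and depth. Of 19545 rows, 26 symbols turned into dates and 1 second entry were left out.

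Genes whose signal reached 1 in 3 or more libraries (12031) were fitted as log2(signal + 1) in limma 3.58.1 (R 4.3.3), all 6 groups in 1 model with 12 residual degrees of freedom, trend and robust estimation, two-sided tests, and Benjamini-Hochberg adjustment over all genes in each of 8 comparisons (threshold 0.05). All adjusted p-values are from limma. The plan had named this test for values that are not counts. On simulated data for HFD+AOS-FMT against HFD it recovered 58%, 88%, 100% and 98% of 50 genes changed by log2 0.5, 1, 2 and 3. The simulated noise was independent and held no library that stands apart, so these rates may not hold for the real libraries. With 3 against 3 libraries, non-overlap is a description.

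The members and lists were chosen with earlier results of these data known. In each comparison, members that passed are given in full, or the 4 with the smallest p where fewer passed. Among other pathway genes, those that passed are named (up to 4), or else the 1 with the smallest p. Members named beyond this rule were chosen after their values were seen. Promoter sequences are from RefSeq.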

Additional observations from a re-analysis of the deposited data

How the results depend on the processing

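Alternatives were a pseudocount of 0.1, no filter on low values, quantile normalization, no trend and robust estimation, a fit of the compared groups alone, the replicate number as a block, and each library left out. A term for germ cell transcripts and HFD replicate 3 as the only HFD library were added after seeing the data, because the planned germ cell rule took all 18 libraries through Smcp and could not be fitted. Of 832 alternative values for 32 named log2 differences, 800 kept direction and side of the threshold, 8 lost and 23 gained the threshold, and 1 reversed: Ppp1r15a in AOS against control, at 0.0092 without control replicate 3 (-0.73 to 0.0092 over the libraries left out).

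In HFD+AOS-FMT against HFD, 8 members passed in the fit of those groups alone (1.38% of all genes), and 0 to 10 with 1 library left out. In HFD+AOS against HFD, 10 passed in the fit of those groups alone (2.61% of all genes), 0 with the germ cell term, 0 with HFD replicate 3 alone, and 0 to 10 with 1 library left out: 0 without any HFD or HFD+AOS library, and 2, 4 and 10 without control replicate 1, 2 and 3. With 1 library left out, 0 to 5 members passed in HFD against control (0 to 217 of all genes), 0 to 3 in HFD+AOS-FMT against control (61 to 792), 0 to 1 in AOS against control (0 to 30), and 0 for the other 3 comparisons (0 to 14). Over these settings, 0 to 585 of all genes passed for HFD+AOS-FMT against HFD, and 0 to 808 for HFD+AOS against HFD.

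The replicate block changed no member count: 1 passed in HFD+AOS against HFD and 0 in the others. Same-numbered libraries had deviations correlated at -0.16 to 0.26 over 21 pairs, 5 of them over 0.1. Of 18 libraries, 6 correlated best with their own number. No pairing by number was apparent, though with 3 libraries per group this check cannot exclude it. Over all genes the block left 180 calls in HFD+AOS-FMT against control, 45 in HFD+AOS against HFD and 15 for HFD+AOS-FMT against HFD. Read depth is unknown, which limits Trib3, Chac1 and Derl3 most.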
